A study of Rattus norvegicus with 4 samples.

Results

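Fatty acids are made, remodelled and burned by separate sets of enzymes. The 67 genes described here, called members, are those that a pattern of symbols took from the array. The array also measured other genes of the same steps. They were chosen by symbol alone, from 14217 genes with a single symbol in the array's annotation. The families taken are the acyl-CoA synthetases and thioesterases, the carnitine palmitoyltransferases, the enzymes of mitochondrial and peroxisomal beta-oxidation, fatty acid synthase, the desaturases, the elongation enzymes and the peroxins. Choice by symbol also took in genes with other roles, such as Acad8 and Acadsb of branched-chain amino acid breakdown and Pex5l, a relative of Pex5 best known for ion channel trafficking in neurons. Of the 67 members, 55 were bright enough to be tested and 12 were not.

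Rat ovaries of postnatal day 4 were kept as whole organs on floating filters for 10 days in serum-free medium with albumin, transferrin, insulin and ascorbate. The control group received nothing more. The AMH group received 50 ng/mL anti-Müllerian hormone (AMH), a hormone of the TGF-beta family, made by granulosa cells, whose restraint of primordial follicle growth is the subject of the series. Each group had 2 RNA samples, each from about 10 pooled ovaries, described in the labels as independent, and each was hybridised to 1 Affymetrix array, giving 4 arrays. The labels name no strain.

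Beta-oxidation shortens a fatty acid by repeated rounds of dehydrogenation, hydration, a second dehydrogenation and thiolysis, after activation to an acyl-CoA and, for mitochondria, transfer across the membrane as a carnitine ester. Synthesis and elongation run the opposite chemistry in the cytosol and the endoplasmic reticulum, and desaturases then add double bonds. Peroxisomes shorten very long and branched chains and are built by the peroxins. In the ovary, oocytes use beta-oxidation as they mature, and steroid-producing and granulosa cells hold lipid stores.

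With AMH, 3 of 5 tested genes of fatty acid synthesis and desaturation and 3 of 8 of elongation rose, 3 of 15 of mitochondrial oxidation fell and 1 rose, and no peroxin passed the test. Each change is the AMH mean less the control mean of log2(intensity + 16), ± its standard error from a limma fit (n = 2 arrays per group). The added 16 shrinks the changes of dim genes. A gene is called higher or lower when its adjusted p, over all 18625 tested probe sets, is under 0.05. Each gene is represented by its probe set with the highest mean. Of the 55 tested members 10 were called higher, against 11.1% of all 10622 tested genes, and 4 lower, against 11.9%. That is 18.2% and 7.27% of the members, and 25.5% in either direction against 23% of all genes, so the share of members called was close to that of all genes. Rises and falls numbered 4 and 1 without control replicate 1 (2.22% and 5.23% of all genes), 5 and 3 without control replicate 2 (3.94% and 6.47%), and 13 and 7 without AMH replicate 2 (14.6% and 15.3%). The members' median change was 0.16, and that of all tested genes was 0.07. The AMH arrays lay above both control arrays for 41.8% of the tested members (36% of all tested genes) and below both for 21.8% (28.6%).

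**Figure D1:**
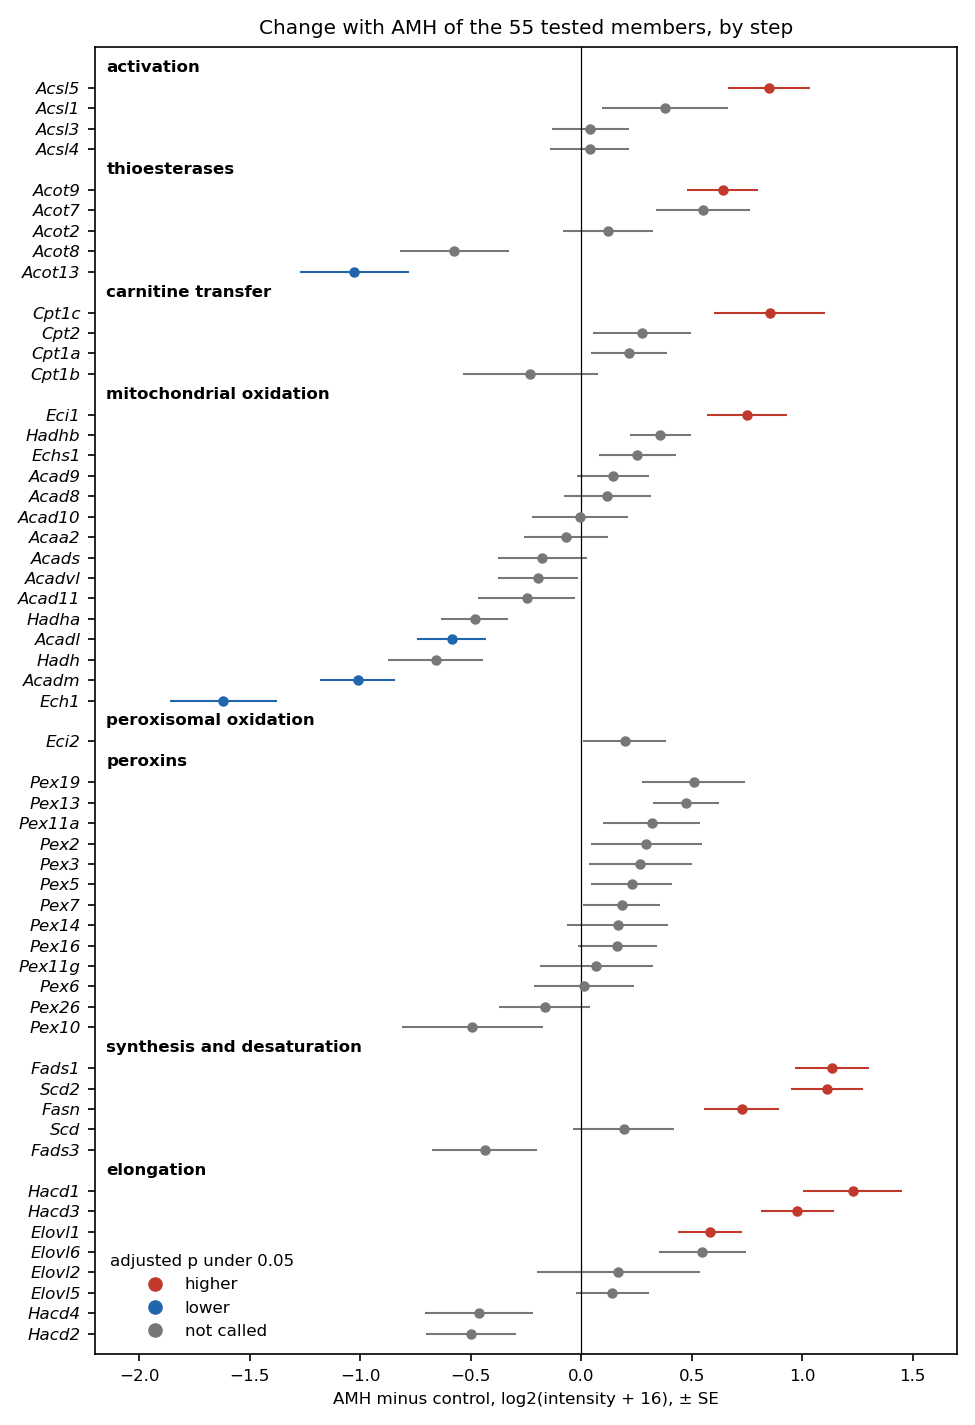
Change with AMH of each tested member, grouped by step, in log2 units (points, AMH minus control; bars, SE; n = 2 arrays per group). Called members are coloured: 6 of the 10 rises lie in synthesis, desaturation and elongation, and 3 of the 4 falls in mitochondrial oxidation. Of the 55 tested members, synthesis and desaturation hold 5, elongation 8 and mitochondrial oxidation 15. Of all tested genes 11.1% were called higher and 11.9% lower.

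The arrays differed between groups in more than these genes. GAPDH control probe sets for the 3′ end read 1.17 and 1.27 times those for the 5′ end in control and 6.56 and 6.37 times with AMH, a ratio used to judge RNA quality. The same ratio for beta-actin was 3.17 and 4.6 in control and 10.7 and 14.4 with AMH. The chip identifiers carry 1 run string for both control arrays and another for both AMH arrays, so run and treatment cannot be told apart. Ovarian markers were present: Zp3 of the oocyte lay between 1977.8 and 2721.8 and Foxl2 of granulosa cells between 395.1 and 617.0. Cell type markers moved as well. Of 8 oocyte markers 5 were lower with AMH, and their summed intensity was 9878 to 10480 in control and 7408 to 7776 with AMH. The 6 granulosa markers summed to 2751 and 2322 in control and to 4421 and 3516 with AMH, and 1 of 6 tested was higher (Amhr2, the AMH receptor, 0.70 ± 0.21, adjusted p = 0.0462). The 6 steroidogenic markers summed to 807.4 and 912.5 in control and to 3469 and 1481 with AMH (1 of 4 tested higher). The 6 adipocyte markers, which could enter with fat around the ovary, summed to 110.9 and 1039 in control and 238.8 and 431.5 with AMH (0 of 4 tested called), and the 3 red blood cell markers to 1220 to 1410 and 86.7 to 102.7 (1 of 2 tested lower). The 5 macrophage markers summed to 426.8 and 334.3 in control and 340.1 and 472.2 with AMH, with 1 of 4 tested higher (Cd68, 1.04 ± 0.21, adjusted p = 0.0122). The others tested, Csf1r (-0.004 ± 0.259), Adgre1 (-0.21 ± 0.32) and Aif1 (-1.07 ± 0.57), were not called and did not rise. The 4 endothelial markers summed to 761.2 and 703.5 in control and 682.0 and 807.2 with AMH (0 of 3 tested called). None of these markers was listed at 0. In whole-organ RNA, fewer cells of a type and less RNA per cell cannot be told apart. The part of these differences in the results that follow was not tested.

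Fatty acid synthesis and desaturation gave 3 rises (60%) and 0 falls among 5 tested genes, against 11.1% and 11.9% of all genes. The median change was 0.725. In the mean over the tested probe sets of a gene there were 2 rises, where 7.24% of all genes were called higher, and the median was 0.33. Scd2, a stearoyl-CoA desaturase that puts the first double bond into saturated fatty acids, had intensities of 1653.5 and 1437.5 in control and 3773.9 and 2967.5 with AMH. Both AMH arrays lay above both control arrays, and the change was 1.11 ± 0.16 (2.16-fold, adjusted p = 0.00357). Fads1, the desaturase that completes arachidonic acid, went from 151.3 and 147.0 to 359.1 and 335.1, again without overlap (1.14 ± 0.17, 2.2-fold, adjusted p = 0.00353). Fasn, the synthase that builds palmitate, was at 352.9 and 345.7 in control and at 656.9 and 525.9 with AMH (0.725 ± 0.168, 1.65-fold, adjusted p = 0.0194). The arrays of each group lay close together for all 3 genes compared with the distance between the groups.

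Other probe sets of these genes did not all repeat the change. Scd2 had 3 further tested probe sets, of which 2 were called higher (1.12 ± 0.23, adjusted p = 0.0124, and 0.90 ± 0.27, adjusted p = 0.0469) and the dimmest was not (0.42 ± 0.30). The other probe set of Fasn read 127.0 and 104.1 in control and 120.9 and 98.5 with AMH, with a change of -0.07 ± 0.21. The call of Fasn therefore belongs to 1 of its 2 probe sets, and their mean was not called (0.33, adjusted p = 0.229). It was also lost without control replicate 1 (adjusted p = 0.112) or control replicate 2 (0.109). Fads1 kept its call in all 14 alternatives run, and Scd2 in all but scaling to the hybridization controls (0.63, adjusted p = 0.0618).

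The remaining desaturases were not called. Scd, the relative of Scd2 that is best known from liver and fat, was at 77.6 and 113.0 in control and 101.0 and 118.5 with AMH (0.19 ± 0.23, 95% interval -0.33 to 0.72). Fads3 read 49.2 and 60.4 in control and 36.8 and 35.4 with AMH, below both control arrays (-0.44 ± 0.24, adjusted p = 0.222). Fads2, which acts in the same pathway as Fads1, and Fads2b were too dim to be tested, with mean intensities of 23.7 and 11.85. The filter level was set on the mean log2 value and corresponds to an intensity of 27.8.

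The promoters of Scd2 and Fads1, the desaturase genes with the smallest adjusted p, are shown because promoters of lipid synthesis genes often hold a CCAAT box, the binding sequence of the factor NF-Y, beside a site for the sterol regulatory factor SREBP. Each sequence is the 250 bases before the annotated gene start in RefSeq's GRCr8 assembly, 5′ to 3′ on the gene's strand, with CCAAT in capitals.
Scd2, chr1:253118127-253118376, plus strand: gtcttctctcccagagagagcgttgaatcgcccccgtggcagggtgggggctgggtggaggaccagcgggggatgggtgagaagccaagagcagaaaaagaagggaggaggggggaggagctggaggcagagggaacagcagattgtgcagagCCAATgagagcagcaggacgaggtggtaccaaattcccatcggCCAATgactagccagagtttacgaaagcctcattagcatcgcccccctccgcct
Fads1, chr1:216252442-216252691, plus strand: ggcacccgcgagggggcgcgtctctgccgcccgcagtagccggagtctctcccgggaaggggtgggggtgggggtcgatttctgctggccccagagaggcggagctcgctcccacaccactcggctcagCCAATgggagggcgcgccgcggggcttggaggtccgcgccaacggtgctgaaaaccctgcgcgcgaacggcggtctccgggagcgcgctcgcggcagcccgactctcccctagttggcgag
Scd2 had 2 matches, starting 97 and 54 bases before the gene start, and Fads1 had 1, starting 121 bases before it. Over 1 such window per gene, CCAAT on either strand occurred in 34.3% of 27457 promoters, in 17 of the 57 members with a promoter in the table, and in 3 of the 8 called higher that had one (Scd2, Fads1 and Acot9). The letters TCACNCCAC, a common form of the SREBP site, occurred on either strand in 0.976% of all promoters and in 1 member, Acot13, which fell. A match is only a run of letters in this window.

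Elongation adds carbon pairs to a finished fatty acid in the endoplasmic reticulum, with an ELOVL enzyme for the first reaction and a HACD dehydratase for the third. Of 8 tested genes 3 (37.5%) were called higher and 0 lower, against 11.1% and 11.9% of all genes, with a median of 0.36. Without control replicate 1 there was 1 rise and the median was 0.61, and in the mean over probe sets of a gene 2 were higher and 1 lower. Hacd3 had control intensities of 400.5 and 417.8 and AMH intensities of 921.3 and 731.7 (0.98 ± 0.17, 1.97-fold, adjusted p = 0.00624). Hacd1, first known from muscle, went from 80.0 and 126.0 to 259.9 and 255.1 (1.23 ± 0.22, 2.34-fold, adjusted p = 0.00804). Both AMH arrays were above both control arrays for each dehydratase. Elovl1, which extends very long saturated chains, was at 477.3 and 484.8 in control and 729.3 and 726.6 with AMH (0.58 ± 0.15, 1.5-fold, adjusted p = 0.0253). The other probe set of Hacd1 was called too (0.97 ± 0.20, adjusted p = 0.0122), whereas that of Hacd3 gave 0.20 ± 0.22. The mean over the Hacd3 probe sets had an adjusted p of 0.0748. Elovl1 lost its call without control replicate 1 (adjusted p = 0.205) or 2 (0.166) and Hacd1 without control replicate 1 (0.0566).

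The uncalled elongation genes pointed in both directions. Elovl5, the elongase of polyunsaturated chains and the gene of this step with the highest mean intensity, was at 1306.9 and 1417.0 in control and 1705.2 and 1321.7 with AMH (0.14 ± 0.16). A dimmer Elovl5 probe set was called lower instead, from 82.3 and 74.4 to 6.3 and 21.0 (-1.71 ± 0.30, adjusted p = 0.00711). The AMH values lie below the filter level, so the size of that fall depends on the constant added. The mean of both Elovl5 probe sets was called lower (-0.79, adjusted p = 0.0185). Elovl6, which lengthens palmitate to stearate, was above control on both AMH arrays (165.9 and 132.0 against 245.9 and 203.3; 0.55 ± 0.20, adjusted p = 0.0823). It passed without AMH replicate 2 (0.0379) and with median centring (0.0486). Hacd2 (-0.50 ± 0.20) and Hacd4 (-0.46 ± 0.24) were below control on both AMH arrays, and Elovl2 (0.17 ± 0.37) overlapped. Elovl3 was too dim to test.

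**Figure D2:**
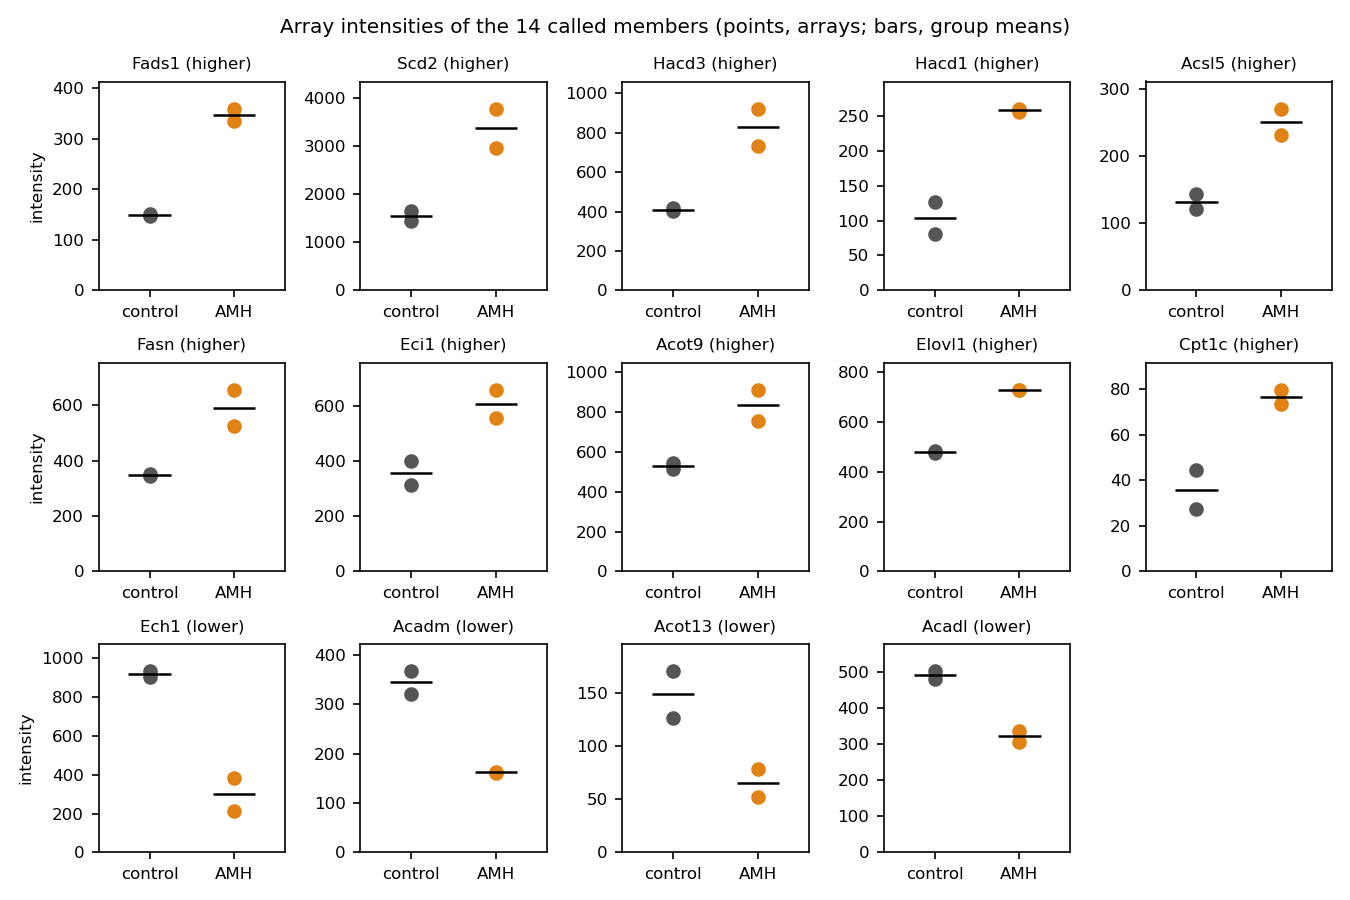
Intensity of the 14 called members on each array, on linear axes from 0 (points, arrays; bars, means of 2 arrays). In no called member do the groups overlap; Ech1 is the member with the largest change, 3.08-fold lower with AMH.

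Mitochondrial beta-oxidation gave 1 rise (6.67%) and 3 falls (20%) among 15 tested genes, against 11.1% and 11.9% of all genes. Their median change was -0.18. Falls numbered 1 without control replicate 1, 2 without control replicate 2 and 5 without AMH replicate 2. The median was negative under each of the 4 scalings run. It lay 0.22 to 0.25 below that of all genes, a distance that scaling an array by 1 factor hardly changes. Ech1, the isomerase that prepares certain polyunsaturated chains for oxidation and is found in both mitochondria and peroxisomes, was at 936.3 and 903.1 in control and at 215.8 and 382.9 with AMH. Its groups were far apart and the change was -1.62 ± 0.24 (adjusted p = 0.00379), called in all 14 alternatives. Acadm, the medium-chain acyl-CoA dehydrogenase, fell from 367.4 and 320.5 to 162.8 and 161.5 (-1.01 ± 0.17, 2.02-fold, adjusted p = 0.00608). Its call was lost without control replicate 1 (adjusted p = 0.0636). Acadl, the long-chain acyl-CoA dehydrogenase, fell from 478.5 and 502.2 to 336.6 and 306.3 (-0.59 ± 0.16, 1.5-fold, adjusted p = 0.0317). Acadl lost its call without control replicate 1 (0.188) or 2 (0.222) and with median centring (0.0846). All 3 genes have 1 probe set each.

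Eci1, the isomerase that handles unsaturated chains in mitochondria, moved the other way. It was at 400.6 and 312.0 in control and 556.3 and 659.4 with AMH (0.75 ± 0.18, 1.68-fold, adjusted p = 0.0227), a call lost without control replicate 2 (0.191). So of the auxiliary isomerases for unsaturated chains, Ech1 fell and Eci1 rose on the same arrays.

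The trifunctional protein, which carries out the later reactions for long chains, had its subunit genes on opposite sides of 0, and neither passed. With hybridization control scaling both were below 0 (Hadhb -0.12, Hadha -0.95). Hadha, the alpha subunit, was at 659.3 and 613.0 in control and 434.6 and 467.2 with AMH (-0.48 ± 0.15, adjusted p = 0.0536). Hadhb, the beta subunit and the gene of this step with the highest mean, was at 1232.1 and 1317.9 in control and 1591.2 and 1681.1 with AMH (0.36 ± 0.14, adjusted p = 0.1). Within each array the log2 difference Hadhb minus Hadha was 0.89 and 1.09 in control and 1.84 and 1.81 with AMH on the deposited scale, a measure chosen after the values were seen. Hadhb was above control and Hadha below it on both AMH arrays, so the groups of that difference could not overlap. With 2 arrays against 2 no permutation test can reach a small p. Hadha passed without AMH replicate 2 (adjusted p = 0.0262), with quantile normalization (0.0391), with the lowest 60 percent left out (0.0469) and with hybridization control scaling (0.0136), and Hadhb without AMH replicate 1 (0.0446).

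The other genes of this step spread around 0. Hadh, the dehydrogenase for shorter chains, was at 464.1 and 346.7 in control and 210.0 and 292.6 with AMH (-0.66 ± 0.22, adjusted p = 0.0617) and passed without AMH replicate 2 (0.01). Acadvl (-0.20 ± 0.18) and Acads (-0.18 ± 0.20), the very long and short chain dehydrogenases, lay below control on both AMH arrays. Acad9 (0.14 ± 0.16), an assembly factor of respiratory complex I as well as a dehydrogenase, Echs1 (0.25 ± 0.18), the hydratase for short chains, and Acad8 (0.12 ± 0.20) lay above it. The thiolase gene Acaa2 (-0.07 ± 0.19), Acad11 (-0.25 ± 0.22) and Acad10 (0.00 ± 0.22) overlapped. Acadsb was too dim to test.

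Activation and release of acyl chains gave scattered changes, where 11.1% of all tested genes were called higher and 11.9% lower. Acsl5, an acyl-CoA synthetase found on mitochondria and endoplasmic reticulum, rose from 121.2 and 142.9 to 230.8 and 270.5 (0.85 ± 0.19, 1.8-fold, adjusted p = 0.0161). It was the only one called of 4 tested synthetases, and it lost the call without control replicate 1 (0.138) and in the mean with its other probe set (0.0684). Acsl4, which prefers arachidonic acid and had the highest mean of the step, was at 563.3 and 544.4 in control and 662.3 and 487.8 with AMH (0.04 ± 0.18, 95% interval -0.38 to 0.45). Acsl3 (0.04 ± 0.17) and Acsl1 (0.38 ± 0.28) overlapped as well, Acsl1 with control arrays at 179.1 and 363.6, and Acsl6 was too dim. A dimmer Acsl1 probe set gave -0.63 ± 0.34.

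Among 5 tested thioesterases, which split acyl-CoA back into fatty acid and coenzyme A, 1 rose and 1 fell. Of all tested genes 11.1% were called higher and 11.9% lower. Acot9, a mitochondrial form, went from 542.9 and 511.6 to 755.6 and 911.2 (0.64 ± 0.16, 1.56-fold, adjusted p = 0.0249). Acot13, a small thioesterase tied to mitochondria, went from 171.2 and 126.9 down to 78.9 and 51.8 (-1.03 ± 0.25, 2.04-fold, adjusted p = 0.0222). Neither pair of groups overlapped. Acot9 lost its call without control replicate 1 (0.131) or 2 (0.168) and Acot13 without control replicate 1 (0.164). Acot7 was above control at its brighter probe set (131.2 and 145.1 against 250.3 and 175.1; 0.55 ± 0.21, adjusted p = 0.099), passing without AMH replicate 2 (0.0153). Its dimmer probe set, under the filter, read 43.4 and 44.6 in control and 19.4 and 12.5 with AMH. Acot8, a peroxisomal form, was below control (-0.58 ± 0.25, adjusted p = 0.133) and Acot2 overlapped (0.12 ± 0.20). A dimmer Acot2 probe set lay below control on both AMH arrays (-0.57 ± 0.25). Acot1, Acot3, Acot4 and Acot12 were too dim.

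Carnitine transfer gave 1 rise among 4 tested genes, where 11.1% of all genes were called higher. Cpt1c, the form of neurons and endoplasmic reticulum with little transferase activity, was at 27.5 and 44.4 in control and 79.8 and 73.4 with AMH (0.85 ± 0.25, 1.81-fold, adjusted p = 0.0449). The lower control value lies under the filter level of 27.8, and the call was lost in 7 of 13 alternatives, among them no filter (0.103) and leaving out control replicate 1 (0.319), control replicate 2 (0.064) or AMH replicate 1 (0.0723). Cpt1a, the rate-setting form of most tissues and the one with the highest mean here, was at 217.5 and 242.0 in control and 286.3 and 253.1 with AMH. Its change was 0.22 ± 0.17 (95% interval -0.18 to 0.61), and a dimmer probe set gave -0.58 ± 0.22 (adjusted p = 0.0944). Cpt2, the inner membrane enzyme (0.27 ± 0.22), and Cpt1b, the muscle form (-0.23 ± 0.31), overlapped between groups.

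Peroxins import proteins into peroxisomes, build their membrane and divide them. Of 13 tested peroxins 0 passed the limma test, against 23% of all tested genes. In the same test 1 peroxin had an unadjusted p under 0.05, namely Pex13, named after its values were seen. Pex13, part of the membrane docking complex for imported enzymes and the peroxin with the highest mean, was at 881.2 and 759.2 in control and 1189.0 and 1096.4 with AMH (0.47 ± 0.15, adjusted p = 0.0563). It passed with median centring (0.0422) and without AMH replicate 2 (0.0234). In all, 11 of the 13 had a change above 0, with a median of 0.18 against 0.07 over all tested genes, and with hybridization control scaling the median was -0.27. The 95% intervals of the peroxins reached from -1.22 to 1.04, so changes of about 2-fold in some of them could not be told from none.

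By role, the receptors for imported enzymes Pex5 (0.23 ± 0.18) and Pex7 (0.18 ± 0.18) lay above control on both AMH arrays, and the docking gene Pex14 (0.16 ± 0.23) overlapped. Of the genes that insert membrane proteins, Pex19 (0.51 ± 0.23, adjusted p = 0.156) and Pex16 (0.16 ± 0.18) were above control and Pex3 (0.27 ± 0.23) overlapped. The ubiquitin ligase genes Pex2 (0.29 ± 0.25) and Pex10 (-0.49 ± 0.32) overlapped, as did Pex6 (0.01 ± 0.23) and Pex26 (-0.17 ± 0.21) of receptor recycling. Dimmer probe sets had the other sign for Pex5 (-0.06 ± 0.30), Pex2 (-0.10 ± 0.20) and Pex16 (-0.32 ± 0.25). That of Pex16 lay below control on both AMH arrays. Leaving out AMH replicate 1 brought in Pex19 (adjusted p = 0.0254) and Pex2 (0.0276), and leaving out AMH replicate 2 brought in Pex10 as lower (0.0425). Of the genes for peroxisome division, Pex11a (0.32 ± 0.22) was above control and Pex11g (0.07 ± 0.26) overlapped. Pex5l was too dim.

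Peroxisomal oxidation was hardly covered. Eci2, an isomerase for unsaturated chains, was at 623.1 and 600.3 in control and 589.2 and 838.5 with AMH (0.20 ± 0.19), and it passed without AMH replicate 1 (0.0436). Acox2 and Acox3, oxidases for branched chains, were too dim to test. Probe sets that the annotation gives to more than 1 gene were left out of the members, and 3 of them were called lower. The probe set shared by Acaa1b and Acaa1a was tested and not called. It read 70.6 and 67.5 in control and 74.5 and 104.2 with AMH (0.295 ± 0.227, adjusted p = 0.388). The probe set shared by Eci3 and Eci2 gave -1.10 ± 0.24 (adjusted p = 0.0163), and those shared by Pex19 and a neighbouring locus gave -1.14 ± 0.21 (adjusted p = 0.0084) and -0.61 ± 0.18 (adjusted p = 0.0457). The direction of Eci2 and Pex19 is therefore uncertain.

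**Figure D3:**
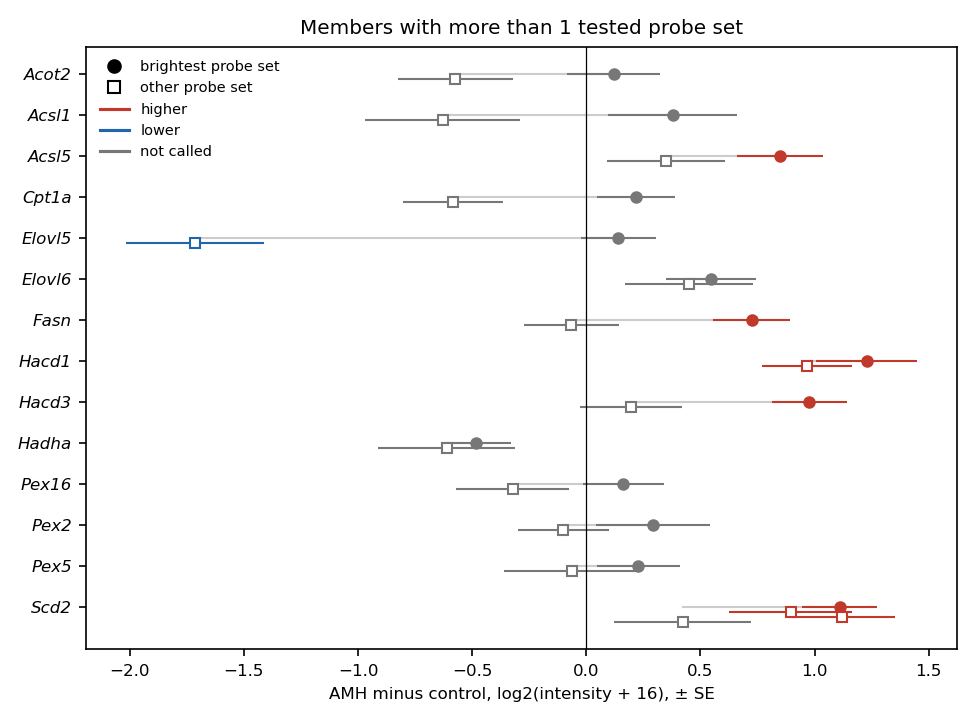
Change with AMH for the 14 members with more than 1 tested probe set (filled circles, the brightest probe set; open squares, the others; bars, SE, in log2 units). In 15 of 16 cases the other probe set lies to the left of the brightest one.

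Probe sets of 1 gene often disagreed. Among the 14 members with several tested probe sets, the signs differed within 8 genes, and 15 of the 16 other probe sets gave a lower change than the brightest one, with a median difference of -0.49. Over all tested genes with several tested probe sets, 71.1% of 3419 other probe sets lay below the brightest one (median difference -0.39) and 50.4% had another sign. Of the called members, Hacd1 and Scd2 were called by at least 1 other probe set, while Acsl5, Fasn and Hacd3 were called by 1 of 2. The remaining 9 called members have 1 tested probe set each. The positions of the probes within the transcripts were not used here. The part of the GAPDH and actin ratios given above in these differences was not tested.

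Other genes of fatty acid metabolism, on a list of 73 that the symbol rule does not take, gave 6 rises and 8 falls among 56 tested, which is 10.7% and 14.3% against 11.1% and 11.9% of all genes, with a median of 0.11. The counts were 0 and 18 with hybridization control scaling (0.886% and 24.5% of all genes) and 4 and 5 with no filter (5.28% and 6.89%). They were 1 and 4 without control replicate 1 and 3 and 5 without control replicate 2, fits in which fewer of all genes were called as well, as given above. Srebf1, which encodes the SREBP1 activator of lipid synthesis, went from 119.9 and 131.4 to 269.4 and 220.2 (0.88 ± 0.19, adjusted p = 0.0145). A dimmer probe set of Srebf1 gave -0.17 ± 0.27, and the call was lost without control replicate 1 (0.107) or 2 (0.0544). Acaca, the carboxylase that feeds fatty acid synthase (0.24 ± 0.15), and Acly, which supplies its acetyl-CoA (0.22 ± 0.17), were above control on both AMH arrays without being called.

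The list held 5 other rises. Abcd3, a transporter of the peroxisome membrane, went from 200.2 and 224.2 to 413.2 and 418.3 (0.92 ± 0.16, adjusted p = 0.00709), and Amacr, a racemase for branched chains, from 98.3 and 88.8 to 188.4 and 169.1 (0.83 ± 0.19, adjusted p = 0.0182). Oxct1, which lets cells burn ketone bodies, went from 274.8 and 258.5 to 463.2 and 820.8 (1.16 ± 0.25, adjusted p = 0.0145). Crot, the peroxisomal carnitine transferase, was called higher at its brightest probe set (0.58 ± 0.16, adjusted p = 0.0384) and lower at another (-0.92 ± 0.22, adjusted p = 0.0208). Prkaa1, a catalytic subunit of AMP kinase, gave 0.56 ± 0.16 (adjusted p = 0.0408). Without control replicate 1 the adjusted p was 0.07 for Abcd3, 0.0881 for Amacr, 0.225 for Crot and 0.269 for Prkaa1. Without control replicate 2 it was 0.124 for Amacr, 0.186 for Crot and 0.206 for Prkaa1, and without AMH replicate 2 it was 0.0594 for Crot.

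The 8 falls on that list varied in size. Hsd17b10, a mitochondrial hydroxyacyl-CoA dehydrogenase, went from 1054.4 and 910.1 to 200.7 and 319.4 (-1.89 ± 0.22, adjusted p = 0.0014), and Dbi, the acyl-CoA binding protein, from 626.2 and 492.1 to 180.2 and 240.3 (-1.35 ± 0.20, adjusted p = 0.00363). Both were called in all 14 alternatives. Acat1, a mitochondrial thiolase (-1.06 ± 0.18, adjusted p = 0.00579), Ivd of leucine breakdown (-1.46 ± 0.29, adjusted p = 0.0106), and Etfb, which takes electrons from the acyl-CoA dehydrogenases (-1.10 ± 0.33, adjusted p = 0.0456), were lower. So were the carnitine-acylcarnitine carrier Slc25a20 (-0.67 ± 0.19, adjusted p = 0.0396), the fatty acid binding protein Fabp3 (-0.90 ± 0.21, adjusted p = 0.0208) and Slc27a3 (-0.98 ± 0.23, adjusted p = 0.0207). A dimmer Acat1 probe set gave 0.60 ± 0.24, and the mean of both was not called (-0.23, adjusted p = 0.444). Etfb rested on widely spaced AMH arrays (88.6 and 212.2), with -0.54 (adjusted p = 0.0534) without AMH replicate 1 and -1.66 without AMH replicate 2. Without control replicate 1 the adjusted p was 0.0514 for Acat1, 0.0731 for Ivd, 0.121 for Etfb, 0.2 for Slc25a20, 0.203 for Fabp3 and 0.157 for Slc27a3. Without control replicate 2 it was 0.185 for Slc25a20, 0.0534 for Fabp3 and 0.0954 for Slc27a3, and without AMH replicate 2 it was 0.07 for Slc25a20.

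Directions depended on the scaling between arrays. Scaling to the 9 hybridization control probe sets, whose targets are spiked in, moved the median change of all tested genes from 0.07 to -0.35. The members then gave 2 rises (Fads1 at 0.69 and Hacd1 at 0.79) and 10 falls, against 0.886% and 24.5% of all genes. The median of synthesis and desaturation remained above 0 (0.26), that of elongation was -0.03 and that of mitochondrial oxidation was -0.61. Relative to the median of all genes, these steps lay at 0.61, 0.33 and -0.25, against 0.65, 0.29 and -0.25 on the deposited scale. This scaling divides each array by 1 factor and so shifts genes by nearly the same amount. The relative values could therefore hardly change, and they are no test of the steps.

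**Figure D4:**
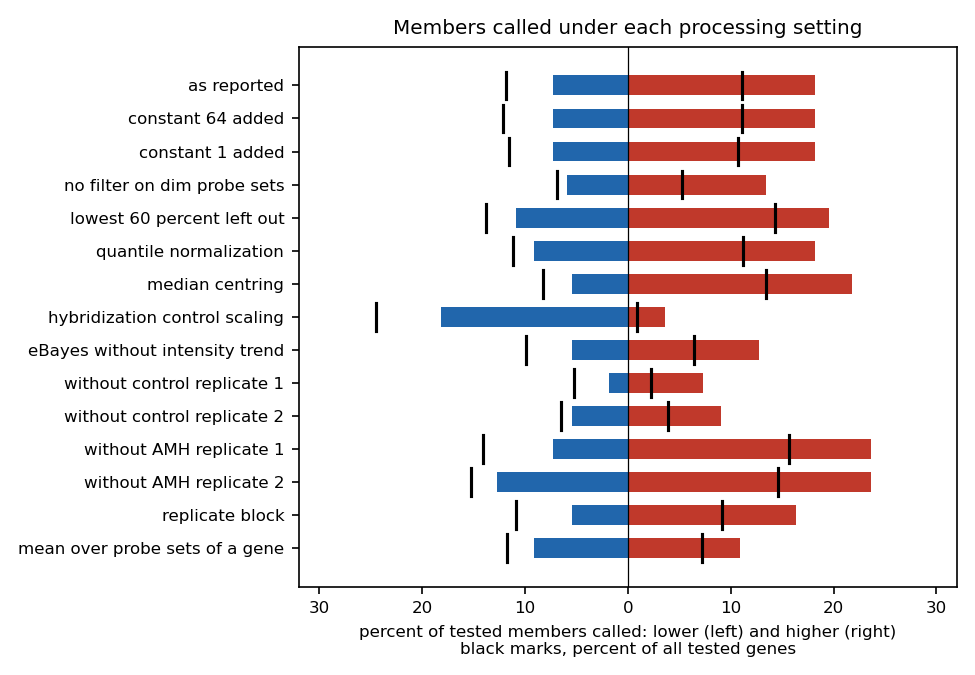
Percent of tested members called higher (right, red) and lower (left, blue) under each processing setting, with the percent of all tested genes as black marks. Rises among the members exceed the mark under every setting drawn, falls stay below it, and scaling to the hybridization controls leaves 2 rises and 10 falls.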

How the data were processed

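Probe set intensities on a linear scale were used as the authors deposited them, 31099 probe sets on 4 one-colour arrays. Their summarising software was not given in these sources. Each array's mean without its lowest and highest 2 percent was 125.03, so arrays had been scaled to one target. Groups came from the sample titles. Intensities were turned into log2(intensity + 16). The 57 control probe sets and the lowest 40 percent by mean log2 value were left out, leaving 18625. The cut was a mean log2 value of 5.45, which corresponds to an intensity of 27.8. The groups were compared by limma 3.58.1 in R 4.3.3 (lmFit, eBayes with intensity trend). Tests were two-sided, with Benjamini-Hochberg adjustment over all tested probe sets. The fit had 2 residual and 6.33 prior degrees of freedom. It was also run on simulated data, whose spread need not be that of these arrays. That run therefore cannot show whether the p-values given here are exact. No permutation of 4 arrays reaches a small p, so p-values rest on the pooled spread. The number of arrays limits precision.

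Members have 95 probe sets of 1 symbol; 66 of 67 matched RefSeq's GRCr8 table through their Entrez identifiers, with 0 symbols changed. Array values are given for called members and for the brightest of each step, and otherwise where groups or probe sets are discussed. Members, lists and tests were chosen with earlier results of these data known. Deviations of same-numbered arrays from their group means correlated at -0.001 across probe sets, so these arrays showed no shared shift. The correlation cannot show whether same-numbered samples were set up together. Alternatives varied the constant, filter, scaling, spread model, probe set rule, block and arrays.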

Additional observations from a re-analysis of the deposited data

How the results depend on the processing

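Of 195 repeats of the 14 calls under the alternatives, 159 kept the call, 36 lost it and 0 turned the sign. The count of 10 rises (11.1% of all genes) became 2 with hybridization control scaling (0.886%) and 6 in the mean over tested probe sets of a gene (7.24%). That of 4 falls (11.9% of all genes) became 10 with the former (24.5%). Leaving out 1 array gave 4 to 13 rises, 1 to 7 falls and 5 to 20 calls in all, against 7.46% to 29.9% of all genes; the fewest came without control replicate 1 and the most without AMH replicate 2, in fits whose residual spread is that of the group still holding 2 arrays (SD of the log2 difference 0.318 between control and 0.435 between AMH arrays). Without control replicate 2 there were 5 rises. In the mean over probe sets, Elovl5 (-0.79), Crot (-0.17) and the uncalled Acsl1 (-0.13), Cpt1a (-0.18), Pex16 (-0.08) and Acot2 (-0.23) turned negative. With the replicate number as a block, 9 rises and 3 falls were called, against 9.15% and 10.9% of all genes. Acadl (0.0538) and Cpt1c (0.0559) were lost, and same-numbered arrays are known to share only the number. In eBayes without the intensity trend, 7 rises and 3 falls were called, against 6.39% and 9.89% of all genes. The calls of Eci1 (adjusted p = 0.0526), Acot9 (0.0636), Elovl1 (0.0653) and Acadl (0.0681) were lost in that limma fit. Of 41 uncalled members, 37 gained a call or turned sign somewhere. Dim genes are limited by the filter level of 27.8.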
